A study of Mus musculus with 8 samples.

Results

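The Ms4a genes encode small membrane proteins that cross the membrane several times and sit in immune cells, and in the mouse they form a cluster on chromosome 19 next to Cd5 and Cd6, which encode related T cell surface receptors. The 8 genes described here are Ms4a1, Ms4a4a, Ms4a4b, Ms4a4c, Ms4a6b, Ms4a6c, Ms4a6d and Ms4a7. They were chosen by symbol and position, with earlier results of these data known. They are 8 of 21 Ms4a genes and of 56691 genes listed in all, and Ms4a8a and Ms4a14 of the same cluster are not among them. RNA came from 4 libraries of mice without Vsig4 (KO) and 4 of wild-type (WT) mice. All mice had received B16F10 cells, a mouse melanoma line, and carried its metastases in the liver; Kupffer cells, the liver's resident macrophages, were sorted a week later as living CD45-positive, Tim-4-positive cells. The labels give neither strain, sex nor age, and do not say whether each library came from its own animal, so the spread between libraries may be in part technical.

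Members of the family act in different cells. CD20, the product of Ms4a1, marks B cells and takes part in their antigen receptor signalling. Ms4a4b is a T cell gene of the mouse whose protein associates with the costimulatory receptor GITR. Ms4a4a and Ms4a7 are macrophage genes, and the Ms4a4a protein associates with the fungal sugar receptor dectin-1. Ms4a6d is of particular interest here because its protein has been reported to form an inhibitory surface complex with VSIG4 on mouse macrophages.

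Vsig4 itself had 9, 6, 2 and 4 counts in KO 1 to 4 and 40604, 46735, 22498 and 25498 in WT 1 to 4, as their genotype labels give. Library totals ran from 16994406 to 19513844 counts in KO and from 15264043 to 19445494 in WT. All 16 Kupffer markers were detected in every library, and the 15 other than Vsig4 summed to 8960 to 27700 CPM (counts made comparable between libraries) in KO and 22500 to 40900 in WT. Melanoma RNA was unequal between libraries: the 10 melanoma markers, all detected in every library, summed to 2760, 3890, 13700 and 7030 CPM in KO 1 to 4 and to 631, 549, 6170 and 5230 CPM in WT 1 to 4. KO 3 had the most melanoma RNA and the least Kupffer RNA, and WT 1 and WT 2 had the least melanoma RNA. In such bulk samples fewer cells of a type and less RNA per cell cannot be told apart.

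The members lie in a tandem cluster, with Ms4a1 nearest to Cd6 and Ms4a6d farthest from it. Distances from the end of Cd6 to the start of the gene range from 420 to 757 kb. In the deposited coordinates the members span positions 11227039 to 11582213 of chromosome 19. The processing notes name mm10, but just 1472 of 52073 shared gene identifiers have their position in GENCODE M21, an annotation of that build. The starts of the 10 genes checked, the members with Cd5 and Cd6, differed from it by 1 common offset. Positions are therefore given as deposited, without a build. The promoter windows below are on GRCm38.p6 and cannot be set against these positions. Cd5 occupies 10694480 to 10716366 and Cd6 10766705 to 10807422, both on the minus strand.

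Duplication within the cluster is visible in the promoters. The windows shown are the 250 bases before the annotated start, from RefSeq on GRCm38.p6, where 6 of the 8 members had an entry, and are shown for the neighbouring copies Ms4a4b and Ms4a4c and for Ms4a6b and Ms4a6c, whose values are set side by side below. Capitals mark the longest run that is identical in both members of a pair. The windows are chr19:11443308-11443557 for Ms4a4b, chr19:11407411-11407660 for Ms4a4c, chr19:11518309-11518558 for Ms4a6b and chr19:11469118-11469367 for Ms4a6c, all on the plus strand.
Ms4a4b: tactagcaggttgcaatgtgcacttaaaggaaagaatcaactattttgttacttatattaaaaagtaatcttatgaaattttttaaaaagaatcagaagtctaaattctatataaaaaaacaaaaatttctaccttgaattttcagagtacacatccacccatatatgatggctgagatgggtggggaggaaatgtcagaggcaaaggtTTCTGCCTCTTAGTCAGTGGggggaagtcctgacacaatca
Ms4a4c: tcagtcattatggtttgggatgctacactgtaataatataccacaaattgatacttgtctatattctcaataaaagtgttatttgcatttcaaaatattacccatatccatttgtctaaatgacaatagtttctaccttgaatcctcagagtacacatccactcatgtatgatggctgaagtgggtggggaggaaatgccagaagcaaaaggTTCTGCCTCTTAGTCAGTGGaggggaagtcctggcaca
Ms4a6b: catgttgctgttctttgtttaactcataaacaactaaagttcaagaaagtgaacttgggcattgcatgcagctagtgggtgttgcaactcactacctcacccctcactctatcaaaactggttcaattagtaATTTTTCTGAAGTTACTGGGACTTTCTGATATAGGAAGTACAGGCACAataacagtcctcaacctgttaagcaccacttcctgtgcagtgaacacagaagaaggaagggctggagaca
Ms4a6c: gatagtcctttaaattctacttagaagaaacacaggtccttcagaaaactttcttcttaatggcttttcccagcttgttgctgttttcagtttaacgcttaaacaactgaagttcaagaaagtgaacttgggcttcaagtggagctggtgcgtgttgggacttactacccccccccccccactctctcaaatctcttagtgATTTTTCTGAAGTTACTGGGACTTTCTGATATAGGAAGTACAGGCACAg

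Ms4a4b and Ms4a4c shared 68.8% of aligned positions and an identical run of 20 bases. The other pairs among the 6 windows shared 42.2% to 50%. In Ms4a6b and Ms4a6c the identical run was 48 bases long, but it ended 71 bases before the start of Ms4a6b and 2 bases before that of Ms4a6c. Aligned from end to end that pair therefore shared just 45.8%. The run holds AGGAAGT, a core of sites for PU.1, the myeloid master regulator, and other ETS factors. On either strand this core occurred in 2 of the 6 windows, those of Ms4a6b and Ms4a6c, and in 7.69% of all 32851 windows. The IRF element GAAANNGAA occurred in 3 of the 6 windows, those of Ms4a6b, Ms4a6c and Ms4a7, and in 7.13% of all. With a further A at its end it occurred in none of the 6 and in 2.98% of all. The shorter form was taken after matches had been seen, so the 3 of 6 cannot test for an excess. In Ms4a6b and Ms4a6c the match, 206 and 133 bases before the start, lies in a stretch that both windows share. These 2 are therefore not separate occurrences. No window held the STAT element TTCNNNGAA (7.02% of all windows) or the AP-1 site TGANTCA (6.75%). TATAAA was found in 1 window, that of Ms4a4b, against 12.4% of all.

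By FPKM, Ms4a6d was the most abundant family member, and the order of levels was nearly fixed across libraries. The authors' FPKM, used here to compare different genes, divides by the listed exonic size. Among the members that size runs from 836 bases (Ms4a4a) to 8780 bases (Ms4a4b), and the order depends on it. Ms4a6d averaged 87.6 FPKM over the 8 libraries (range 38.0 to 106), followed by Ms4a6c at 53.9 FPKM (29.1 to 66.8). Ms4a6b averaged 28.1 FPKM (12.6 to 37.0), Ms4a4c 18.7 (12.2 to 24.6), Ms4a4a 13.3 (8.23 to 23.1) and Ms4a7 7.63 (4.60 to 10.2). The lymphocyte genes came last in FPKM, with Ms4a4b at 3.35 FPKM (1.58 to 6.09) and Ms4a1 at 0.702 FPKM (0.430 to 0.980). In mean CPM, which does not divide by size, Ms4a4b (26.7 in KO, 33.5 in WT) was above Ms4a4a (12.4 and 9.53). Likewise Ms4a6b (115 in KO, 140 in WT) was above Ms4a6c (97.4 and 126). On both scales Ms4a6d was the highest of the 8 and Ms4a1 the lowest.

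Ms4a6d was above Ms4a6c in 8 of 8 libraries, and Ms4a6b above Ms4a4c in 8 of 8. Ms4a4c was above Ms4a4a in 6 of 8 libraries and Ms4a4a above Ms4a7 in 6 of 8, so those neighbours were not cleanly ordered. Of the 13 Ms4a genes outside the 8, Ms4a8a, which is known from alternatively activated macrophages, averaged 43.6 FPKM (16.9 to 61.5), between Ms4a6c and Ms4a6b. Ms4a14 averaged 1.62 FPKM and Ms4a4d 0.515 FPKM. Ms4a3, a gene of granulocyte and monocyte progenitors, had 0, 3, 0 and 0 counts in KO 1 to 4 and 1, 22, 16 and 0 in WT 1 to 4. The mast cell gene Ms4a2 had at most 3 counts in a library, 5 other family genes had none in any library, and 3 more had fewer than 10 in each.

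**Figure D1:**
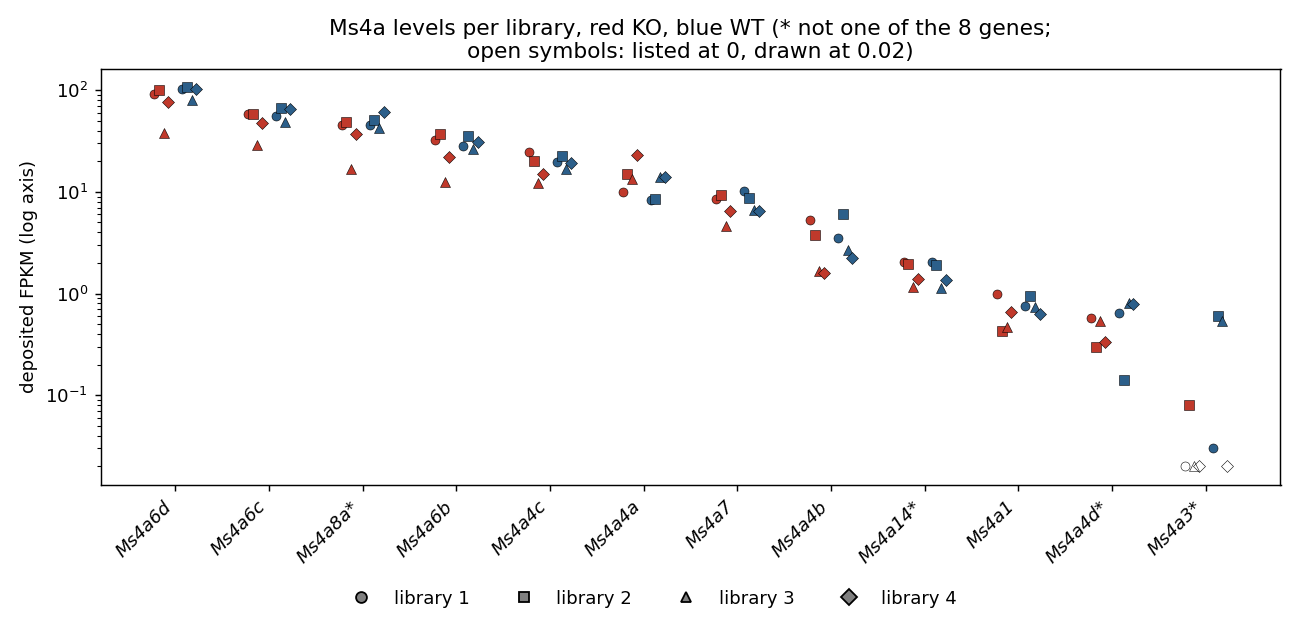
Deposited FPKM (log axis) of the 12 Ms4a genes with at least 10 counts in a library, for the 4 KO (red) and 4 WT (blue) libraries, ordered by mean; genes with an asterisk are outside the 8. Ms4a6d leads at 87.6 FPKM on average, Ms4a8a lies between Ms4a6c and Ms4a6b at 43.6 FPKM, and Ms4a1 is at 0.702 FPKM.

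Counting limits differ between members. Of the distinct 50-base stretches of the GENCODE M21 transcripts, 51.4% of those of Ms4a6c also occur in another gene, nearly all in BE692007, which overlaps 12095 bases of Ms4a6c on the opposite strand. Since the strand setting of the counting is not given, Ms4a6c counts are uncertain. Ms4a4c shared 8.19% of its stretches, mostly with Ms4a4b. The shares were 3.57% for Ms4a6b, 2.54% for Ms4a6d, 2.40% for Ms4a4b, 1.21% for Ms4a1, 0.306% for Ms4a7 and 0% for Ms4a4a.

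None of the 8 genes differed between KO and WT by the adjusted test, and 7 of the 8 had lower mean values in KO, as did 50.4% of all tested genes. By edgeR's quasi-likelihood test with Benjamini-Hochberg adjustment over 15870 tested genes, 0 of 8 passed 0.05, where 0.0063% of all genes (Vsig4) did. DESeq2 and limma also called 0 of the 8. At an unadjusted p under 0.05 edgeR called 0 of 8, against 8.78% of all genes. The median log2 fold change (KO over WT) was -0.31 over the 8 genes, with a range of -0.42 to 0.38, against a median of -0.0028 over all tested genes. KO and WT values overlapped for each of the 8, while 5.56% of all tested genes had groups that did not overlap. In same-numbered pairs 3 of the 8, Ms4a6c, Ms4a6d and Ms4a7, were lower in KO in all 4, against 19.6% of all genes.

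**Figure D2:**
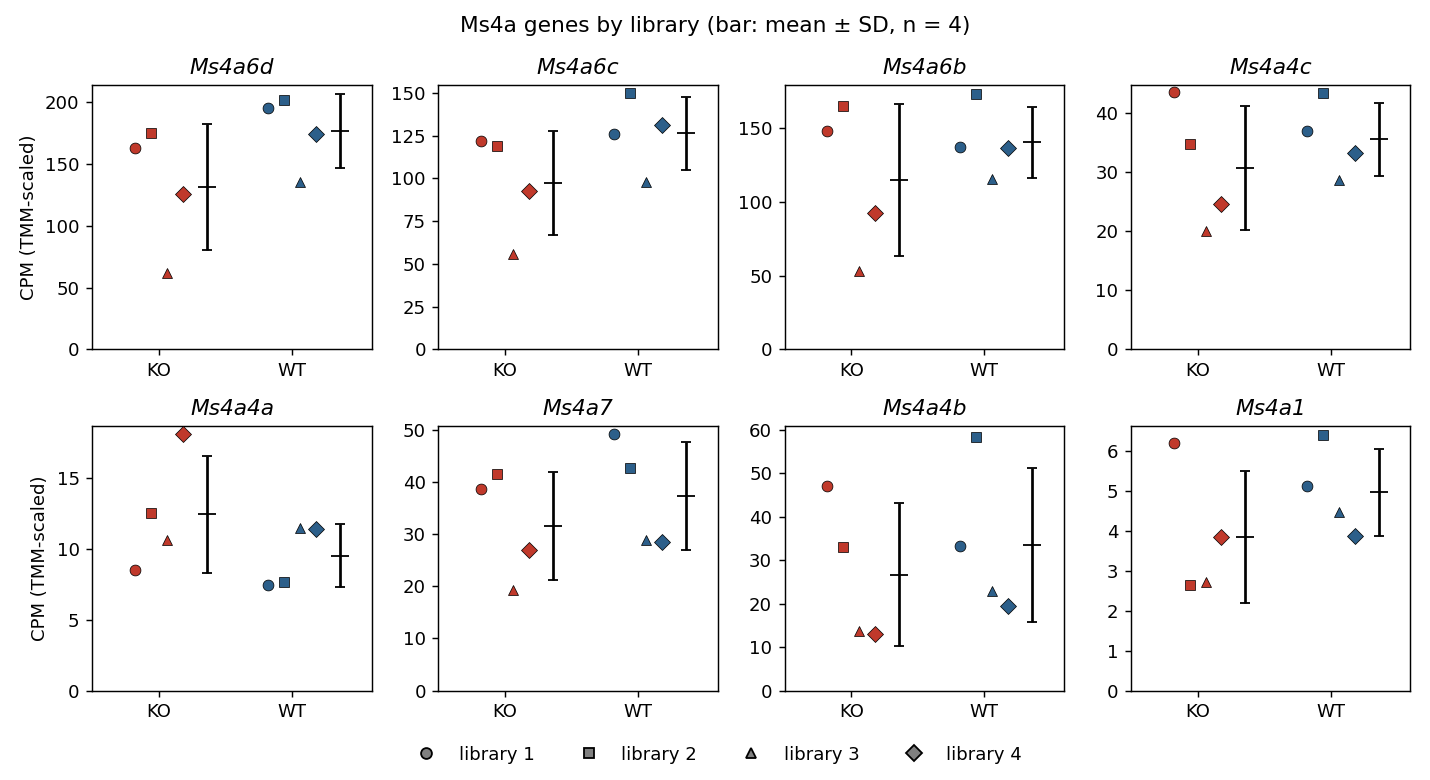
CPM of each of the 8 genes in the 4 KO (left, red) and 4 WT (right, blue) libraries, with mean ± SD; the symbol gives the library number. The groups overlap in every panel, KO 3 is the lowest library for Ms4a6d, Ms4a6c, Ms4a6b, Ms4a4c and Ms4a7, and the KO mean exceeds the WT mean for Ms4a4a (12.4 against 9.53 CPM).

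Ms4a6d (ENSMUSG00000024679, 11563968 to 11582213, minus strand), the reported partner of VSIG4, had 163, 175, 61.9 and 126 CPM in KO 1 to 4, against 195, 202, 135 and 174 CPM in WT 1 to 4. KO 3 lay far below the other libraries, and KO 1 and KO 2 lay within the WT values. Its mean was 131 ± 51.0 CPM in KO and 176 ± 29.9 CPM in WT (SD, n = 4 each), a log2 fold change of -0.42 ± 0.300 (SE; edgeR adjusted p = 0.508). Without KO 3 it was -0.19. Ms4a6d RNA was present in all 4 KO libraries, at 1119 to 3434 counts.

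Ms4a6b and Ms4a6c ran close to Ms4a6d from library to library. Ms4a6b (ENSMUSG00000024677, 11493876 to 11508620, plus strand) had 148, 165, 52.9 and 92.6 CPM in KO 1 to 4, against 137, 173, 115 and 136 CPM in WT 1 to 4. KO 3 was lowest and WT 2 highest, and KO 1 and KO 2 exceeded 3 of the 4 WT libraries. The log2 fold change was -0.29 ± 0.325 (edgeR adjusted p = 0.634), and -0.055 without KO 3. Ms4a6c (ENSMUSG00000079419, 11446730 to 11459556, plus strand), whose counts are uncertain as said, had 122, 119, 56.0 and 92.5 CPM in KO 1 to 4, against 126, 150, 98.2 and 131 CPM in WT 1 to 4. Every KO value was below its same-numbered WT value, but KO 1 and KO 2 exceeded WT 3 (log2 fold change -0.37 ± 0.245, edgeR adjusted p = 0.496; -0.18 without KO 3).

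Ms4a4c (ENSMUSG00000024675, 11382134 to 11404610, plus strand) had 43.6, 34.7, 20.1 and 24.7 CPM in KO 1 to 4, against 37.0, 43.4, 28.7 and 33.2 CPM in WT 1 to 4. KO 1 was the highest of all 8 libraries and KO 3 the lowest (log2 fold change -0.21 ± 0.247, edgeR adjusted p = 0.651; -0.055 without KO 3). The macrophage gene Ms4a7 (ENSMUSG00000024672, 11298403 to 11313510, minus strand) had 38.7, 41.5, 19.3 and 26.9 CPM in KO 1 to 4, against 49.2, 42.6, 28.8 and 28.4 CPM in WT 1 to 4. In both genotypes numbers 3 and 4 were lower than 1 and 2, and the log2 fold change was -0.24 ± 0.280 (edgeR adjusted p = 0.651). It was -0.064 without KO 3 and -0.074 without WT 1.

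Ms4a4a had the opposite sign and a different profile. Ms4a4a (ENSMUSG00000101389, 11352887 to 11370154, plus strand) had 8.52, 12.5, 10.6 and 18.1 CPM in KO 1 to 4, against 7.47, 7.69, 11.5 and 11.4 CPM in WT 1 to 4. KO 4 was the highest library, while KO 1 and KO 3 fell within the WT range. The log2 fold change was 0.38 ± 0.270 (edgeR adjusted p = 0.508), with higher values in KO in 3 of 4 same-numbered pairs, and it was 0.14 without KO 4. Ms4a4a made up 3.56%, 5.06%, 10.3% and 9.90% of all Ms4a FPKM in KO 1 to 4, against 2.96%, 2.73%, 5.84% and 4.57% in WT 1 to 4. The size of this share also depends on the listed exonic sizes. In both genotypes the share was larger in the libraries numbered 3 and 4, which also had more melanoma RNA than 1 and 2. The part of melanoma content in this was not tested. Its nearest gene downstream, ENSMUSG00000120878, starts 52 bases after the end of Ms4a4a on the same strand and is unnamed in the table. Its log2 fold change was 0.24 (edgeR adjusted p = 0.685), and by the likeness measure given below it was among the 3 genes closest to Ms4a4a.

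The T cell gene Ms4a4b was highest in the libraries richest in T cell markers, WT 2 and KO 1. Ms4a4b (ENSMUSG00000056290, 11420917 to 11444419, plus strand) had 47.0, 33.0, 13.7 and 13 CPM in KO 1 to 4, against 33.2, 58.4, 22.9 and 19.4 CPM in WT 1 to 4. WT 2 was highest, and in both genotypes numbers 3 and 4 were lowest. Its log2 fold change of -0.33 ± 0.495 (edgeR adjusted p = 0.721) became 0.085 without WT 2. The 14 T cell markers, all detected in every library, summed to 269, 206, 79.7 and 72.8 CPM in KO 1 to 4 and to 165, 307, 109 and 101 CPM in WT 1 to 4, with no member passing the adjusted test.

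Per 100 T cell marker counts, Ms4a4b stood at 17.4, 16, 17.2 and 17.9 in KO 1 to 4, against 20.2, 19.0, 21.1 and 19.3 in WT 1 to 4. On this scale the spread within a genotype was small and all KO values were below all WT values. The log2 ratio was lower by a small amount in KO (-0.21; 2-sided exact permutation p = 0.0286, the smallest p that 4 against 4 allows; adjusted p = 0.0571 over the 2 ratios tested, n = 4 each), so it did not pass. It was -0.16 with Cd3e, Cd3d and Cd3g alone as markers (exact p = 0.200), -0.19 with FPKM in place of counts (exact p = 0.0857), and -0.21 within same-numbered pairs (exact sign flips, p = 0.125, the smallest that 4 pairs allow).

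Cd5 and Cd6, on the same scale, are given for comparison as values. Cd5 had 0, 0, 0 and 2.24 counts per 100 T cell marker counts in KO 1 to 4, against 3.98, 3.84, 3.59 and 3.12 in WT 1 to 4. Cd6 had 6.88, 7.57, 7.01 and 6.06 in KO 1 to 4, against 3.85, 4.17, 3.53 and 3.70 in WT 1 to 4. Ms4a4b had 844, 646 and 248 counts in KO 1, KO 2 and KO 3, where Cd5 had none. Whether the KO mice differ from WT mice at another locus near Cd5, besides Vsig4, was not tested, and if they did, its part in the values of this region could not be told apart from that of Vsig4.

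**Figure D3:**
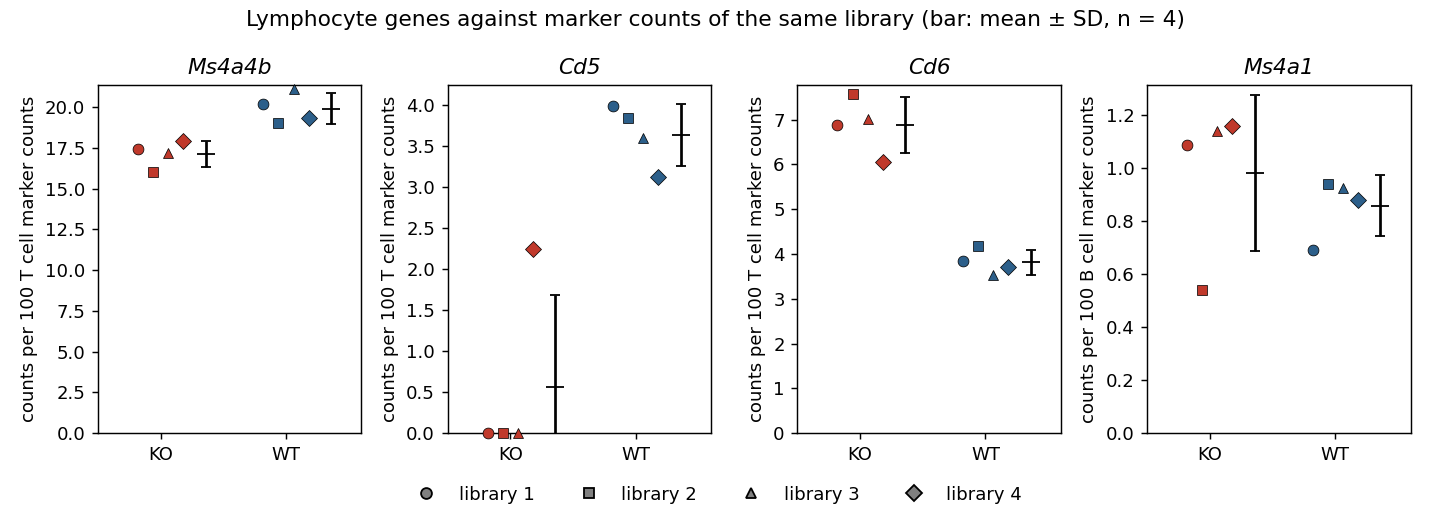
Counts of Ms4a4b, Cd5 and Cd6 per 100 counts of 14 T cell markers, and of Ms4a1 per 100 counts of 13 B cell markers, in the KO (left) and WT (right) libraries, with mean ± SD (n = 4). Ms4a4b lies between 16 and 17.9 in KO and between 19 and 21.1 in WT, a difference that did not pass the adjusted exact permutation test. Cd5 is at 0 in 3 KO libraries, and every KO value of Cd6 is above every WT value.

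The B cell gene Ms4a1 was low in every library. Ms4a1 (ENSMUSG00000024673, 11227039 to 11243605, minus strand) had 111, 52, 49 and 73 counts in KO 1 to 4, against 72, 114, 72 and 60 counts in WT 1 to 4. In CPM that was 3.84 ± 1.65 in KO and 4.96 ± 1.09 in WT (SD, n = 4 each), with overlapping groups and a log2 fold change of -0.37 ± 0.322 (edgeR adjusted p = 0.558). It was -0.70 without KO 1 and -0.22 without WT 2. The 13 B cell markers were all detected in every library and summed to 237 to 568 CPM in KO and 438 to 740 CPM in WT. Per 100 of their counts, Ms4a1 stood at 1.09, 0.542, 1.14 and 1.16 in KO 1 to 4, against 0.693, 0.940, 0.927 and 0.880 in WT 1 to 4. The log2 ratio differed by 0.14 (2-sided exact permutation p = 0.686, adjusted p = 0.686 over the 2 ratios, n = 4 each). KO 2 stood apart: without it the difference was 0.40 (exact p = 0.0286).

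The sign of several members was not the same in every fit. With the mean log2 CPM of the melanoma markers as a covariate, the log2 fold changes were 0.38 for Ms4a4b, 0.19 for Ms4a7, 0.092 for Ms4a4c and 0.0074 for Ms4a6b, and they stayed negative for Ms4a6c and Ms4a6d (-0.12 each) and Ms4a1 (-0.049). Without KO 3, WT 1 and WT 2, the most and least melanoma-rich libraries, which also hold the lowest Kupffer RNA (KO 3), 1 member, Ms4a6c, kept a negative value (-0.043). Ms4a4a kept its positive sign in both fits, at 0.12 and 0.19. No member passed the adjusted test in either fit. Set against Kupffer RNA instead, by counts per 100 counts of the 15 Kupffer markers, the mean was higher in KO for 8 of 8 members. Ms4a6d had 0.634 ± 0.0463 in KO and 0.564 ± 0.0917 in WT (SD, n = 4 each), and Ms4a7 had 0.160 ± 0.0381 in KO and 0.116 ± 0.00993 in WT. The markers in that denominator had lower values in KO, so the sign of the members is relative to the scale chosen.

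**Figure D4:**
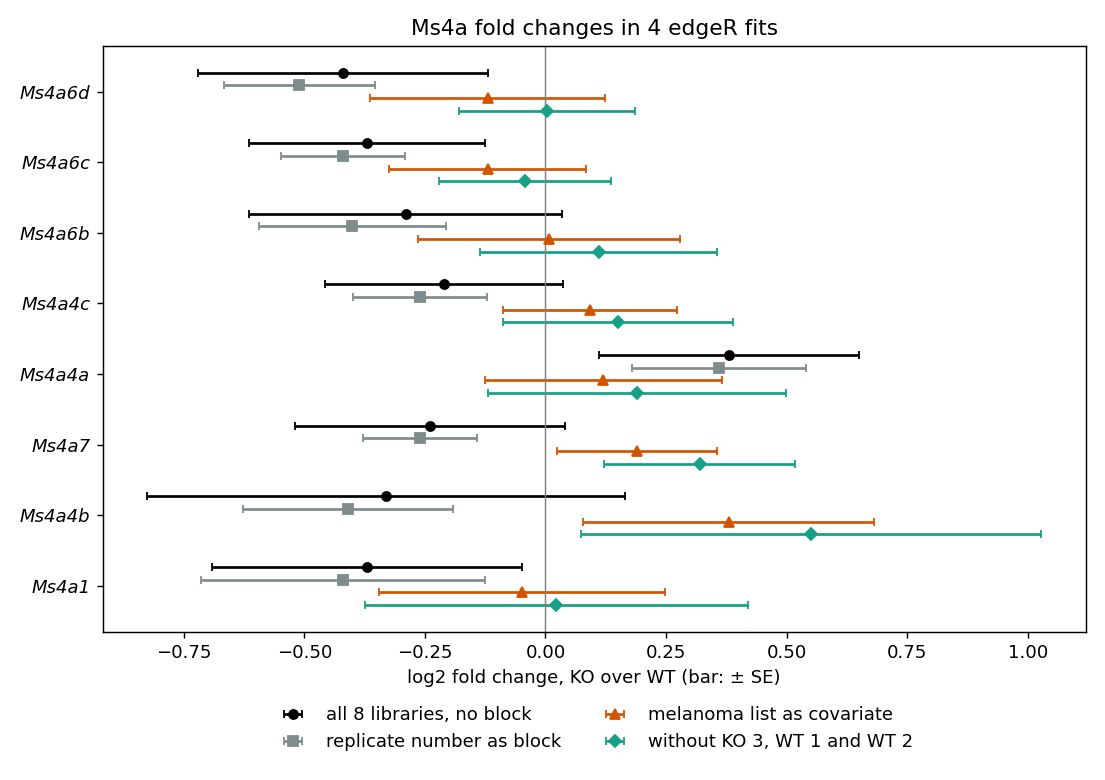
Log2 fold changes (KO over WT) ± SE of the 8 genes in 4 edgeR fits. With all 8 libraries 7 genes lie below 0, with or without the replicate number as a block, whereas with the melanoma covariate or without KO 3, WT 1 and WT 2 most points move to or above 0; Ms4a4a is above 0 in all 4 fits.

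With the replicate number as a block, 0 of 8 members passed the adjusted threshold, against 14% of all tested genes. The smallest blocked adjusted p was that of Ms4a6c (log2 fold change -0.42 ± 0.128, adjusted p = 0.0644), followed by Ms4a6d (-0.51 ± 0.157, adjusted p = 0.0653). Ms4a8a, outside the 8, had 83.4, 87.9, 28.5 and 62.8 CPM in KO 1 to 4, against 87.8, 98.8, 74.9 and 108 CPM in WT 1 to 4. Its KO 3 value was again the lowest of the 8 libraries (log2 fold change -0.49 ± 0.314, edgeR adjusted p = 0.494). Ms4a14 and Ms4a4d had log2 fold changes of -0.076 and -0.48 (edgeR adjusted p = 0.903 and 0.624).

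Genes between and around Cd5, Cd6 and the cluster had no common direction. Within 100 kb of the span of Cd5, Cd6 and the members lay 61 genes, of which 29 were tested. Apart from the Ms4a genes, 18 were tested, with 8 higher and 10 lower values in KO, a median log2 fold change of -0.15 and none past the adjusted threshold; at an unadjusted p under 0.05 edgeR called 3 of the 18, all lower (4.56% of all genes). These were Cd5 (-3.95, adjusted p = 0.492), AW112010 (-1.05, adjusted p = 0.492), which lies inside the Ms4a cluster next to Ms4a8a, and Gm10802 (-0.99, adjusted p = 0.492). With the replicate block 5 of the 18 passed, all lower (5.01% of all genes were called lower): Cd5, AW112010, Gm10802, Slc15a3 and Tmem132a. In the deposited coordinates Gm10802 lies inside Slc15a3 and Tmem132a overlaps its end, both on the opposite strand. As the strand setting of the counting is not given, these 3 may not be separate calls, which limits the comparison with 5.01%. Slc15a3 and Tmem132a are named after their values were seen. Cd6 had a log2 fold change of 0.72 (edgeR adjusted p = 0.533), opposite in sign to those of Cd5 and of 7 of the 8 members.

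**Figure D5:**
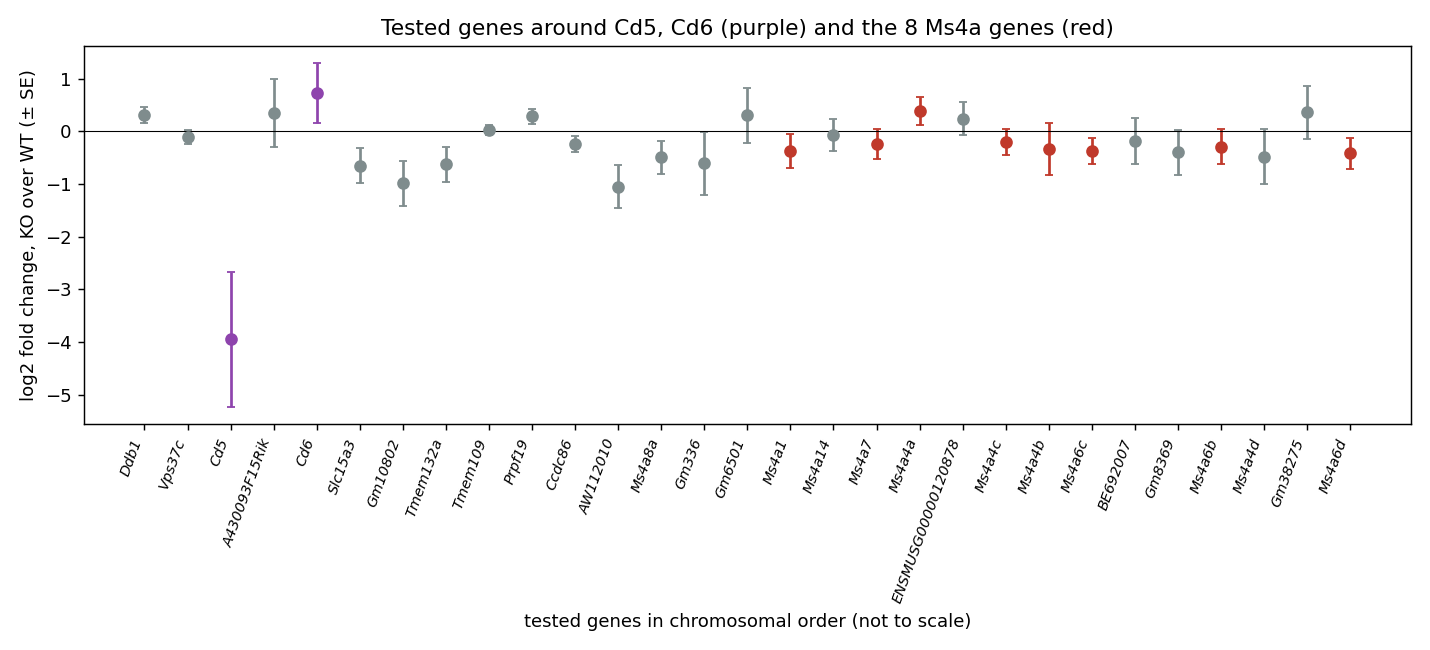
Log2 fold changes (KO over WT) ± SE of the 29 tested genes around Cd5, Cd6 (purple) and the 8 Ms4a genes (red), in chromosomal order and not to scale. Cd5 stands at -3.95, Cd6 at 0.72, and the 8 Ms4a genes lie between -0.42 and 0.38.

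Profiles over the 8 libraries placed the members near different genes. Likeness was the root mean square difference between log2 CPM profiles centred on their means, over 8 libraries and 13626 genes compared, where a smaller value is closer. Nearest to Ms4a4b were Gimap1 (0.124), the T cell kinase gene Zap70 (0.130) and Gpr174 (0.144), against a median of 0.777 over all genes. For Ms4a6d these were the Fc receptor gene Fcgr3 (0.0560), Ptpn1 (0.0629) and Cebpg (0.0688), with a median of 0.590. Snx24 (0.0516), Enox2 (0.0676) and Klf3 (0.0720) were closest to Ms4a7.

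Tcirg1, Kansl1l and Asb13 (0.0629 to 0.0667) were closest to Ms4a4c, Mfsd7a, Abcd4 and Smim24 (0.0567 to 0.0787) to Ms4a6c, and ENSMUSG00000121091, Marchf1 and Pou2f2 (0.0810 to 0.0914) to Ms4a6b. Ms4a4a was nearest to the chemokine gene Ccl9 (0.176), ENSMUSG00000120878 (0.181) and Mpg (0.189), and Ms4a1 to the clock gene Per3 (0.178), Ldlrad4 (0.196) and Sema4a (0.201), not to a B cell marker. Among the members themselves the closest pair was Ms4a6c and Ms4a6d (0.133), then Ms4a6b and Ms4a6d (0.139), and the farthest was Ms4a4a and Ms4a4b (1.06). All profiles share the libraries and their melanoma content.

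Reported partners of MS4A proteins had lower values in KO as well. Of 7 such genes 6 were tested, and all 6 gave lower means for KO, as did 50.4% of all tested genes. Their median log2 fold change was -0.38, where that of the 16 Kupffer markers was -0.60. The adjusted test called 0 of 6, against 0.0063% of all genes. The part of Kupffer content in these values was not tested. The costimulatory receptor gene Cd40 stood at -0.51 (edgeR adjusted p = 0.492), Clec7a, which encodes dectin-1, at -0.34 (edgeR adjusted p = 0.496) and the signalling adaptor gene Tyrobp at -0.50 (edgeR adjusted p = 0.505). With the block 1 of the 6, Tyrobp, passed with a lower value, where 5.01% of all tested genes did.

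Markers of the cells that could carry Ms4a RNA are given as counts of lower values in KO, with the median log2 fold change. Of all tested genes 50.4% had lower values. All 16 Kupffer markers were lower (-0.60), with Vsig4 the 1 call, followed by Spic (-0.50) and Id3 (-0.61). For monocytes it was 7 of 13 (-0.068), led by Ace (0.86), Plac8 (-0.66) and S100a4 (0.23), with summed levels of 482 to 876 CPM in KO and 733 to 1050 in WT. The T cell list had 9 of 14 lower (-0.060), with Cd8a (-1.02), Tcf7 (0.41) and Cd8b1 (-0.60) first, and the B cell list 11 of 13 (-0.22), with Ighm (-0.49), Cd72 (-0.58) and Bank1 (-0.62).

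Dendritic cell markers had 5 of 9 lower (-0.20; Cd209a, Itgae and Xcr1 first), NK and cytotoxic markers 7 of 9 (-0.52; Gzma, Gzmb and Ncr1) and neutrophil markers 3 of 6 tested (-0.017; Ltf, Cxcr2 and Mpo). Of those lists the neutrophil marker Ly6g had libraries at 0. Hepatocyte markers had 10 of 10 lower (-0.60; Trf, Tat and Alb) and sinusoidal endothelial markers 6 of 9 (-0.42; Kdr, Oit3 and Clec4g), while 10 of 10 melanoma markers were higher (1.15; Mitf, Sox10 and Slc45a2). None of these list members but Vsig4 passed without the block. With it, 11 of 16 Kupffer, 4 of 9 endothelial, 3 of 13 B cell and 2 of 10 hepatocyte markers passed with lower values, as did 1 each of the NK, neutrophil and monocyte lists (5.01% of all tested genes). Higher values passed with the block for 9 of 10 melanoma markers and 1 of 13 monocyte markers (8.98% of all tested genes), and no T cell or dendritic cell marker passed. The part of any of these cell types in the members' values was not tested beyond the ratios and fits above.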

How the data were processed

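Per the file headers, the deposited table holds raw counts and the authors' FPKM values for every gene and library, with exonic sizes and positions as other numbers. HTSeq 0.6.1 and mm10 are named in the submitters' processing notes; no aligner, strand setting or annotation is given in the sources used here. FPKM values matched counts scaled by exonic size and column total within 0.015 for 100% of values. The letter K was read as KO and C as the WT control.

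Genes were kept by filterByExpr (15870 of 56691), scaled by TMM and tested in edgeR 4.0.16 (R 4.3.3) by the 2-sided quasi-likelihood test, with Benjamini-Hochberg adjustment and a threshold of 0.05. SEs come from the unshrunken coefficient and its F statistic. Alternatives used DESeq2 1.42.0, limma 3.58.1 on log2(FPKM + 1), where fold changes of low genes are understated, other scaling and filters, a block, a melanoma covariate and fewer libraries. Ratios of counts were compared by exact permutation; for Ms4a1 the alternative with a shorter marker list is not reported here. Scripts were tested on simulated data.

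The members and lists were chosen with earlier results of these data known. Named genes are all members, other Ms4a genes with at least 10 counts in a library, Cd5, Cd6 and the 3 smallest p of the region, the 3 smallest p of each list, and the 3 closest profiles of each member (log2 CPM, prior count 2).

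Deviations from the genotype means correlated between same-numbered libraries at 0.561, 0.544, 0.660 and 0.290, all above 0.1. Equal numbers were therefore treated as pairs in the blocked fits and paired comparisons, which comes from the data, not the labels. The edgeR test without the block and the exact permutations used no pairs. Correlations between differently numbered libraries are not given for comparison. In both genotypes libraries 3 and 4 had more melanoma RNA than 1 and 2, and its part in these correlations was not tested. Replicate libraries differed beyond sampling noise (chi-square per degree of freedom at least 10.7). By counting error alone, 0 counts may stand for up to 3, or 0.153 to 0.214 CPM. Motifs were searched on both strands; the IRF element was shortened by its last base after matches had been seen. Promoters were aligned end to end with Biopython 1.88.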

Additional observations from a re-analysis of the deposited data

Results flagged for a closer look

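Ms4a1 in KO 2 stood at 0.542 counts per 100 B cell marker counts, while KO 1, KO 3 and KO 4 stood between 1.09 and 1.16. The gap to the nearest library was 0.882 of the range of the KO group, above the 95% critical value of 0.829 for 4 samples. Of 20 groups of 4 examined this was 1, and chance flags about 1 in 20. KO 2 had 52 counts of Ms4a1.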

How the results depend on the processing

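The count of 0 members past the threshold held under all 20 alternatives, 4 of them (the blocked fit without each pair) added after the data were seen. All genes past the threshold numbered 1 in edgeR, 36 in DESeq2, 2 without a filter on low counts and 1 to 2 with single libraries left out. With the replicate block 2220 passed; leaving out pair 1 gave 207, pair 2 gave 2, pair 3 gave 1 and pair 4 gave 2229; the block changed no call of a member.

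Across these fits a member changed sign 11 times, and the cause was not tested. With the melanoma covariate the log2 fold changes were 0.38 for Ms4a4b, 0.092 for Ms4a4c, 0.0074 for Ms4a6b and 0.19 for Ms4a7. Without KO 3, WT 1 and WT 2 they were 0.022 for Ms4a1, 0.55 for Ms4a4b, 0.15 for Ms4a4c, 0.11 for Ms4a6b, 0.0027 for Ms4a6d and 0.32 for Ms4a7. With single libraries left out Ms4a4b ranged from -0.75 to 0.085, with the positive value without WT 2. The range was -0.70 to -0.22 for Ms4a1, 0.14 to 0.52 for Ms4a4a, -0.43 to -0.055 for Ms4a4c, -0.52 to -0.055 for Ms4a6b, -0.50 to -0.18 for Ms4a6c, -0.60 to -0.19 for Ms4a6d and -0.40 to -0.064 for Ms4a7.

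Ms4a1 per B cell marker count ranged from 0.038 to 0.40 with single libraries left out. Ms4a4b per T cell marker count ranged from -0.24 to -0.18 with single libraries left out; it was -0.21 within pairs under the replicate block (exact sign-flip p = 0.125), -0.19 with FPKM (exact p = 0.0857) and -0.16 with 3 markers (exact p = 0.200). Ms4a1, at 49 to 114 counts a library, is limited most by depth.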
